A study of Mus musculus with 3 samples.

Results

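The genes examined here encode proteins of the mitochondrial ribosome, and were taken as every locus of the deposited annotation whose gene name starts with Mrpl or Mrps and a digit. The rule found 78 of 48626 loci, which carry 76 gene symbols. Of these loci, 76 matched a RefSeq mRNA on their own strand, and 2 lay antisense to Mrpl55 and Mrps28. Total RNA was sequenced from heart ventricles of C57BL/6 mice at the embryonic stages E10.5 and E13.5, named by the day of gestation, and at 8 weeks of age (Adult). Each stage had 1 paired-end library made with a stranded kit, and no treatment or genetic change was given for any of them. How many animals went into a library is not given in the sources used here. With a single library per stage no difference below has a replicate check, and no test was run.

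The mitochondrial ribosome, or mitoribosome, translates the few proteins encoded by the mitochondrial genome, which are core subunits of the respiratory chain and the ATP synthase. Its RNAs come from the mitochondrial genome, whereas all of its proteins are encoded in the nucleus, made in the cytosol and imported. A small subunit (Mrps genes) reads the mRNA and a large subunit (Mrpl genes) joins amino acids, and each holds proteins shared with bacteria beside proteins found only in mitochondria. The heart is rich in mitochondria, and inherited defects of several of these proteins can cause cardiomyopathy.

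The values are FPKM, the fragments scaled to exon length and library size, so levels can be compared between genes. A run of 3 values is given in the order E10.5, E13.5, Adult throughout. Of the 76 sense loci, 75 were at 1 FPKM or more in every library and 66 were at 10 FPKM or more in every library. Their median level was 34.5, 41.3 and 31.4 FPKM. For the 12569 mRNA loci that reached 1 FPKM in any library (called expressed mRNA loci below), the median was 9.92, 10.3 and 6.94 FPKM. The middle 50% of the sense loci lay between 20.4 and 48.5 FPKM at E10.5, between 26.4 and 66.6 at E13.5 and between 17.5 and 46.8 in the adult. Together the 76 sense loci held 0.859%, 0.945% and 0.866% of the FPKM of all mRNA loci.

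**Figure D1:**
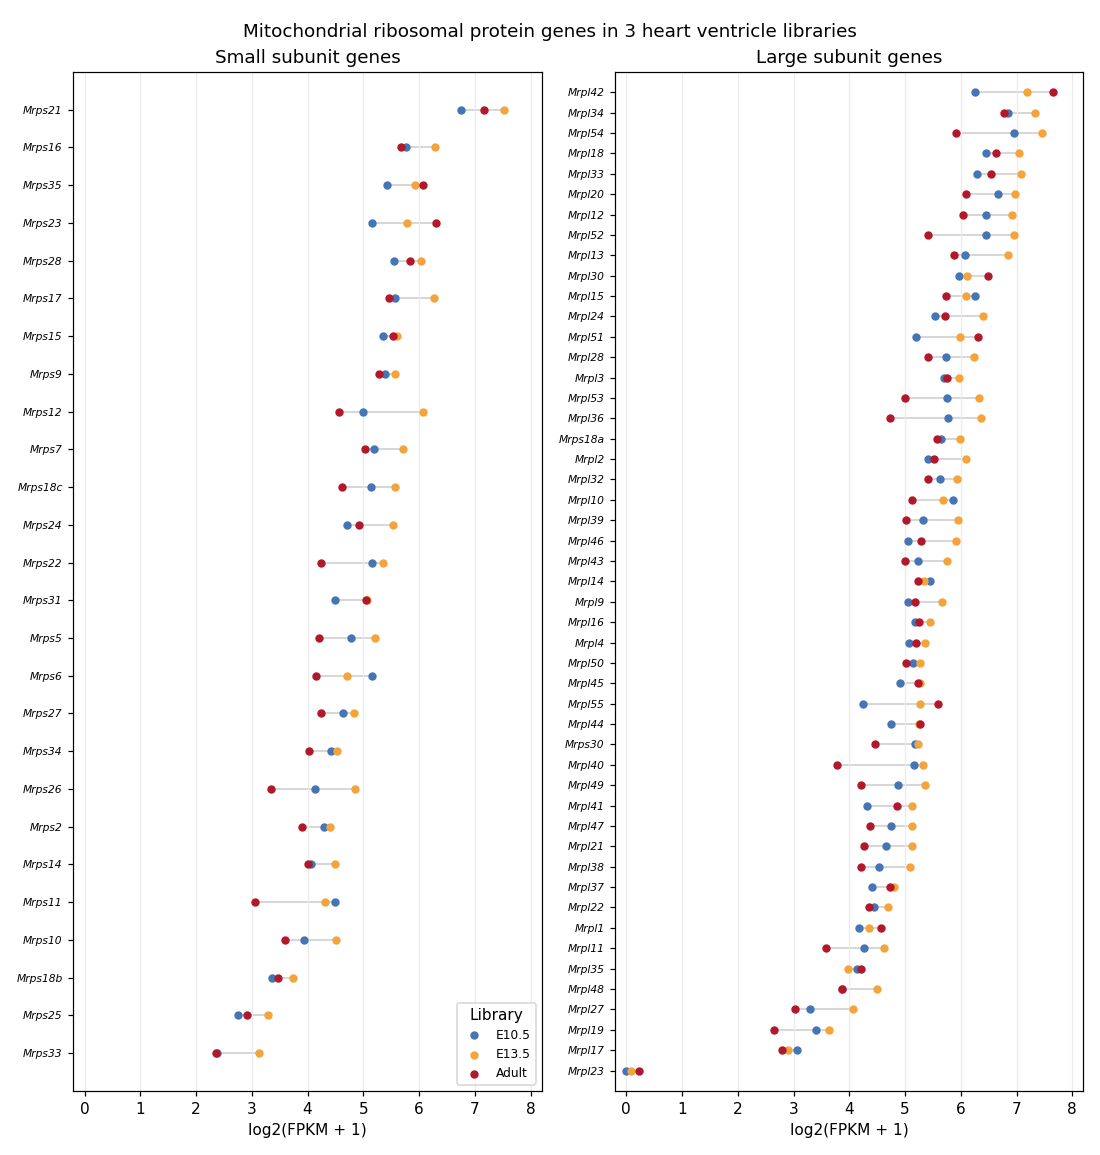
Level of each gene of the small subunit (left) and large subunit (right), ordered by mean FPKM, as log2(FPKM + 1) in the E10.5 (blue), E13.5 (orange) and Adult (red) libraries, 1 library each. Grey lines join the lowest and highest value of a gene. Most genes keep a similar place in the order at all stages, with Mrps21 and Mrpl42 at the top and Mrpl23 close to 0.

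The order of the members was similar between stages. Across the 76 sense loci, which are not independent replicates, Spearman's rho of the levels was 0.945 for E10.5 against E13.5, 0.875 for E13.5 against Adult and 0.844 for E10.5 against Adult. Pearson's r of log2(FPKM + 1) was 0.969, 0.913 and 0.891, against 0.935, 0.673 and 0.675 over the expressed mRNA loci. Each of these values shares its libraries with the others. Of the 10 highest members of a library, 9 were shared between E10.5 and E13.5, and 6 between each embryonic library and the adult.

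Changes are given as differences of log2(FPKM + 1), later minus earlier stage, and a member was counted when it differed by 1 or more. From E10.5 to E13.5, the median change of the 78 loci was 0.45, against 0.17 for expressed mRNA loci. Of the members 2 were higher by 1 or more and 0 were lower, which is 2.56% and 0%. Among all 20117 mRNA loci 3.68% were higher and 3.03% lower, and among expressed mRNA loci 5.89% and 4.85%. The share of members past the limit was thus below that of expressed mRNA loci in both directions, and 63 of the 78 had a change above the median of expressed mRNA loci.

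From E13.5 to Adult, the median change of the members was -0.55, close to the -0.50 of expressed mRNA loci. No member was higher by 1 or more and 13 were lower (16.7%). The shares were 8.14% higher and 20% lower for all mRNA loci, and 13% higher and 32.1% lower for expressed mRNA loci. From E10.5 to Adult, the median change of the members was -0.10, against -0.40 for expressed mRNA loci. Here 4 members were higher (5.13%) and 6 lower (7.69%), beside 9.23% and 17.1% of all mRNA loci and 14.8% and 27.3% of expressed mRNA loci.

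The spread of the changes was narrow. Its SD over the sense loci was 0.31 from E10.5 to E13.5, 0.51 from E13.5 to Adult and 0.56 from E10.5 to Adult. Over expressed mRNA loci it was 0.66, 1.46 and 1.44. The lower level of these mRNA loci adds counting error to their spread, and its part in the difference was not tested.

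**Figure D2:**
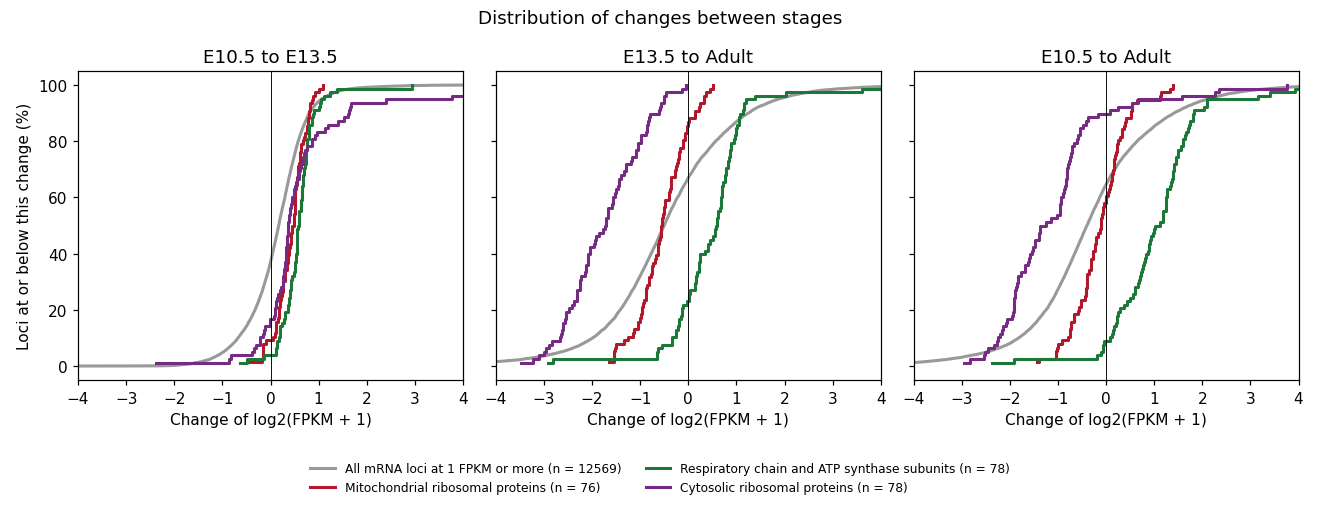
Share of loci (vertical axis, %) at or below each change of log2(FPKM + 1) (horizontal axis, drawn from -4 to 4, with some loci outside) for the 3 pairs of stages. The red curve of the mitochondrial ribosomal proteins is steeper than the grey curve of expressed mRNA loci. In both comparisons with the adult it lies between the respiratory chain (green) and the cytosolic ribosomal proteins (purple) over most of the range.

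The deposited scaling leaves a shift between the libraries, and the direction of the median member depended on it. When the libraries were scaled by median-of-ratios factors over mRNA loci, the median change of the members was 0.30 from E10.5 to E13.5, 0.01 from E13.5 to Adult and 0.29 from E10.5 to Adult. Relative to expressed mRNA loci the values moved little. Over the deposited scaling and 3 others, the members' median lay above that of expressed mRNA loci by 0.23 to 0.28 from E10.5 to E13.5 and by 0.29 to 0.35 from E10.5 to Adult. From E13.5 to Adult it lay between -0.04 and 0.06 of it.

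As deposited, 60 of 76 sense loci (78.9%) had their highest value at E13.5, against 46.7% of expressed mRNA loci. With an equal sum of mRNA loci without globin it was 38 (50% against 28.9%), with median-of-ratios scaling 34 (44.7% against 32.3%) and with an equal sum of all loci 17 (22.4% against 17.96%). The share of members was above that of expressed mRNA loci under each scaling, but the library that held most maxima was not fixed. It was the adult, with 36 and 49 members, under the last 2 scalings. Under all 4 scalings, 30 of 76 sense loci had a higher value in the Adult than in the E10.5 library and 19 a lower one, and for the other 27 the sign depended on the scaling. From E10.5 to E13.5, 45 were higher and 7 lower under all of them, and from E13.5 to Adult 10 and 23. The same counts were not made for expressed mRNA loci. As deposited, 7910 of 12569 expressed mRNA loci were higher and 4646 lower from E10.5 to E13.5, beside 69 and 7 sense loci. From E13.5 to Adult it was 4154 and 8414, beside 10 and 66, and from E10.5 to Adult 4437 and 8127, beside 30 and 46.

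The small subunit was measured by 26 genes and the large subunit by 49. Mrps30 and Mrps18a, named after the small subunit, were counted in the large subunit, where their proteins are found. The median small subunit gene was at 28.6, 37.9 and 20.3 FPKM, and the median large subunit gene at 35.2, 49.9 and 35.5 FPKM. The ratio of their summed FPKM, over 26 and 49 genes, was 0.379, 0.386 and 0.402. Per gene, the ratio of their means was 0.714, 0.728 and 0.757, while the ratio of their medians was 0.813, 0.760 and 0.571. Since the ratios of sums and means went up and that of medians went down, no direction was read for the balance of the subunits.

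In both subunits the proteins with a bacterial counterpart had the higher median. It was 34.3, 46.3 and 26.3 FPKM for 16 such genes of the small subunit, against 21.01, 27.8 and 16.6 FPKM for 10 genes of mitochondria-specific proteins. In the large subunit it was 42.1, 50.2 and 36.7 FPKM for 30 genes, against 34.8, 39.8 and 31.3 FPKM for 19. The groups overlapped widely, and the SD of log2(FPKM + 1) at E10.5 was 0.71 and 1.04 in the small subunit and 1.39 and 0.76 in the large subunit, in the same order. Mrps18a and Mrps18b, of a family with a bacterial origin described below, were counted as mitochondria-specific. Only Mrps18c of that family was counted with the bacterial counterparts.

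The highest members were single genes of both subunits. Mrps21, a small subunit protein with a bacterial counterpart, was at 107, 183 and 142 FPKM. Mrpl34, a small basic protein of the large subunit, was at 113, 161 and 109 FPKM. Mrpl18, whose bacterial counterpart binds the 5S ribosomal RNA, was at 86.997, 130.3 and 98.2 FPKM. As deposited, all of them were highest at E13.5, and under at least 1 other scaling each of them was higher in the adult than at E13.5.

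At the other end, Mrps25, a mitochondria-specific protein of the small subunit, was at 5.75, 8.83 and 6.55 FPKM. Mrpl17, of the large subunit, was at 7.34, 6.46 and 5.90 FPKM. Their low level relative to the other members was seen in every library. Mrps33 and Mrps36 were also among the lowest, and share sequence with other loci described below.

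From E10.5 to the adult, 4 genes were higher by 1 or more under each of the 4 scalings. Mrpl42, a mitochondria-specific protein of the large subunit (chr10:95480806-95501962, minus strand), was at 75.6, 145 and 199.9 FPKM, a change of 1.39. It stood below Mrps21, Mrpl34 and Mrpl54, among others, at E10.5 and above every other member in the adult. Mrpl55, a large subunit protein, was at 18.1, 37.3 and 47.2 FPKM, a change of 1.34. Mrps23, a mitochondria-specific protein of the small subunit, was at 34.7, 54.2 and 77.8 FPKM, a change of 1.14. Mrpl51, a mitochondria-specific protein of the large subunit, was at 35.5, 62.5 and 78.7 FPKM, a change of 1.13. In all 4 the E13.5 value lay between those of E10.5 and the adult, and with the other scalings these changes reached 1.83, 1.77, 1.58 and 1.56. The values are those of whole loci, and all 4 loci also held isoforms not matched to RefSeq. Such isoforms were in 39 of 76 sense members (51.3%), against 74.2% of expressed mRNA loci, and their part in the values was not tested.

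The next 4 genes in this order changed by less than 1 as deposited. Mrps35, of the small subunit, was at 41.9, 60.1 and 66.2 FPKM, a change of 0.65. Mrpl41 and Mrps31, mitochondria-specific proteins of the large and the small subunit, were at 18.8, 33.9 and 28.0 FPKM and at 21.6, 32.5 and 32.0 FPKM, each a change of 0.55. Mrpl30, with a bacterial counterpart in the large subunit, was at 61.2, 68.0 and 88.5 FPKM, a change of 0.52. All 4 were higher in the adult than at E10.5 under every scaling. Of the 8 genes, Mrpl55 and Mrpl30 have bacterial counterparts and 6 are mitochondria-specific. Among all members, 10 of 26 small subunit genes and 19 of 49 large subunit genes are mitochondria-specific. Mrpl40, Mrpl54, Mrpl52, Mrps22 and Mrps26, which are among the 8 lowest changes given below, are mitochondria-specific as well. No direction was read for this class.

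On the lower side, Mrps11 was the member that stayed below E10.5 by 1 or more under every scaling. The protein lies on the platform of the small subunit and has a bacterial counterpart. Its gene was at 21.4, 18.8 and 7.30 FPKM, a change of -1.43, and of -1.04 under the scaling that moved it most. Mrpl40, a mitochondria-specific protein of the large subunit, was at 34.8, 39.2 and 12.7 FPKM, a change of -1.38 and of -0.97 at the least. As deposited, the E10.5 and E13.5 values of both lay close together and the adult value stood apart below them. With an equal sum of all loci, the change of Mrps11 was -0.58 from E10.5 to E13.5 and -0.46 from E13.5 to Adult.

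Mrpl54, Mrpl36 and Mrpl52 showed a common pattern, higher at E13.5 than at E10.5 and lowest in the adult, under every scaling. Mrpl54, one of the highest members in both embryonic libraries, was at 123, 174 and 59.2 FPKM. Mrpl36, among the smallest ribosomal proteins of bacteria, was at 53.4, 81.6 and 25.4 FPKM. Mrpl52, a mitochondria-specific protein, was at 86.2, 123 and 41.8 FPKM. Their changes from E10.5 to the adult were -1.04, -1.04 and -1.03 as deposited and -0.61, -0.62 and -0.60 under the scaling that moved them most, so their count past 1 depended on the scaling.

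Among single-gene loci, the remaining 3 of the 8 lowest changes were those of Mrps22 and Mrps26, mitochondria-specific proteins of the small subunit, and of Mrpl19, of the large subunit. Mrps22, in which inherited defects can cause cardiomyopathy, was at 34.6, 40.0 and 17.9 FPKM, a change of -0.92. Mrps26 was at 16.6, 28.0 and 9.19 FPKM, a change of -0.79, and Mrpl19 at 9.64, 11.4 and 5.29 FPKM, a change of -0.76. All 3 were lower in the adult than in both embryonic libraries under every scaling. Mrps26 shares sequence with an unspliced locus described below.

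Between the embryonic stages, Mrps12 had the largest positive change. The protein sits at the decoding centre of the small subunit. Its gene (chr7:28739288-28741808, minus strand) was at 30.8, 66.4 and 22.5 FPKM. Its change was 1.08 between the embryonic libraries and -1.52 from E13.5 to Adult. The value at E13.5 was the highest of the 3 under every scaling, and its change to E13.5 was 0.66 at the least. Mrpl55 and Mrpl42 followed with 1.01 and 0.93. Mrpl46 and Mrpl24, of the large subunit, were at 32.1, 59.6 and 37.9 FPKM and at 45.5, 83.8 and 51.8 FPKM, each a change of 0.87 to E13.5.

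Among single-gene loci, 5 genes had the lowest changes from E10.5 to E13.5, and all were lower at E13.5 under every scaling. Mrps11 had a change of -0.18. Mrpl10, a protein of the stalk that holds translation factors, was at 56.7, 50.5 and 34.0 FPKM (-0.17), and Mrpl17 one of -0.16. Mrpl15 was at 75.3, 67.3 and 52.5 FPKM (-0.16) and Mrpl35 at 16.5, 14.8 and 17.6 FPKM (-0.15). With the scaling that moved them most these changes lay between -0.52 and -0.58, so their size depended on the scaling. The joined locus of Mrps6, described below, had a lower change (-0.45).

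The 3 genes of the Mrps18 family arose by duplication of a single bacterial type, and their proteins sit at different places of the mitoribosome. Mrps18c was at 34.1, 46.5 and 23.4 FPKM and had its lowest value in the adult under every scaling. Mrps18a, whose protein belongs to the large subunit, was at 48.8, 62.1 and 46.6 FPKM. Mrps18b was at 9.24, 12.3 and 10.1 FPKM, the lowest of the family in every library. Mrps18b and Mrps18c share sequence with unspliced loci described below.

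In 2 loci the annotation joined a member with a neighbor, so their values cannot be assigned to the member. The locus of Mrps6 and the transporter gene Slc5a3 was at 34.6, 24.96 and 16.7 FPKM, and that of Mrpl53 and Ccdc142 at 52.8, 79.6 and 30.99 FPKM. The antisense loci were unspliced and low. The one within Mrpl55 (chr11:59205846-59207362, minus strand) was at 1.12, 0.0864 and 0.0776 FPKM and the one at Mrps28 (chr3:8923596-8928320, plus strand) at 0.697, 1.06 and 1.03 FPKM. Whether the FPKM were counted by strand is not given in the sources used here, so reads of a gene and its antisense partner may not have been told apart.

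Some members share sequence with unspliced loci elsewhere in the genome, which makes their own values uncertain. Mrpl23 (chr7:142533117-142540742, plus strand), the counterpart of a bacterial protein at the exit of the ribosome tunnel, was listed at 0 in the E10.5 library and was at 0.0670 and 0.177 FPKM in the others. An unspliced locus on another chromosome (chr2:74591391-74591956, minus strand) overlaps the annotated pseudogene Mrpl23-ps1 and was at 63.7, 95.2 and 84.4 FPKM. Over 518 aligned bases it was identical to the mRNA of Mrpl23, and it runs through all 4 exon junctions of that mRNA without an intron. The 60 bases around the junction of exons 2 and 3 are shown because reads over a junction would normally tell a gene from such a copy. In the gene they are split by an intron of 942 bases (chr7:142535098-142535127 and chr7:142536070-142536099), in the copy they are continuous (chr2:74591723-74591782), and capitals mark the bases of exon 3 (GRCm38, strand of the mRNA).
Mrpl23 mRNA: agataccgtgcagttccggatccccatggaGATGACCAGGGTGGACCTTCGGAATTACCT
Unspliced locus: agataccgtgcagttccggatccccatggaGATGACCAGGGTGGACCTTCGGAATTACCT

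The 2 stretches have 0 mismatches. The level of the unspliced locus lay among those of other members in each library, whereas the locus of Mrpl23 was below all other sense members. Which of them gave rise to the fragments cannot be told apart from these values, and Mrpl23 is therefore reported as uncertain.

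Mrps36, whose protein is now known as an adaptor of the 2-oxoglutarate dehydrogenase complex and not as a ribosomal protein, was at 3.05, 4.29 and 4.26 FPKM. Unspliced loci on chromosomes 17 and 7 that were 99.7% and 99.3% identical to its mRNA over the aligned part were at 15.1, 20.1 and 24.8 FPKM and at 26.9, 37.2 and 39.7 FPKM. Mrps33 was at 4.18, 7.79 and 4.14 FPKM, and an unspliced locus that shares sequence with it at 18.4, 25.6 and 13.6 FPKM. The 499 aligned bases of that pair (53.3% of the mRNA) were identical, but the alignment also held 116 bases of gaps. Mrpl48 was at 13.7, 21.6 and 13.6 FPKM beside 26.8, 36.9 and 27.0 FPKM for a locus with 98.2% identity. For Mrps18b such a locus was at 8.44, 10.9 and 12.2 FPKM. For Mrps36, Mrps33 and Mrpl48 the unspliced loci were above the gene in every library, and for Mrps18b in the adult only.

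Mrpl42 also has such a locus, of 213 bases on its own chromosome, which was listed at 565, 1235 and 1697 FPKM. It was 98.6% identical to the mRNA over 211 aligned bases. Its values were ordered across the libraries like those of Mrpl42, and its part in the change of Mrpl42 was not tested. Unspliced loci also aligned to Mrps5 (942 bases, 98.7% identity), Mrpl27 (402 bases, 99.0%), Mrps26 (397 bases, 97.7%), Mrpl21 (273 bases, 98.5%) and Mrps18c (179 bases, 97.2%). Their part in the values of these genes was not tested. When 50% or more of the distinct 31-base words of an mRNA was taken as the limit, 4 of 76 members shared that much with an unspliced locus, against 7 of 78 respiratory chain genes and 31 of 78 cytosolic ribosomal protein genes.

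**Figure D3:**
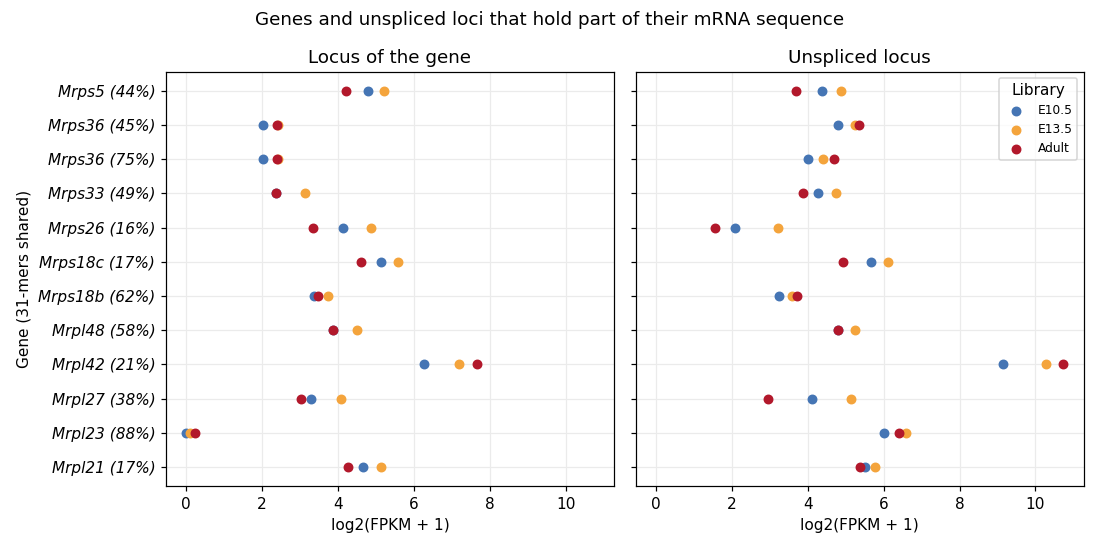
Levels as log2(FPKM + 1) of members (left) and of unspliced loci that share 15% or more of the 31-base words of their mRNA (right, same axis), in the E10.5 (blue), E13.5 (orange) and Adult (red) libraries. Numbers beside the genes are the shared percentages, and Mrps36 has a line for each of 2 loci. Mrpl23 is near 0 at its gene and near 6 at the unspliced locus.

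Members often started head to head with another gene. A start on the opposite strand within 1000 bp upstream, or overlapping by up to 100 bp, was found for 23 of 76 sense members (30.3%), against 1446 of 12989 genes of expressed mRNA loci (11.1%). The median distance of these pairs was 134 and 162 bp. Members were also short, with a median matched mRNA of 1214.5 nt and 5 exons, against 2997 nt and 9 exons for expressed mRNA loci.

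In a single pair both genes were members. The starts of Mrps11 and Mrpl46 lay 42 bp apart on chromosome 7 and the genes ran in opposite directions. From E10.5 to the adult, the change was -1.43 for Mrps11 and 0.23 for Mrpl46. Under every scaling, the Adult value was below that of E10.5 for Mrps11 and above it for Mrpl46, so the pair, which has 1 gene in each subunit, had changes of opposite sign.

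Other pairs joined members with genes of different functions. Mrpl40 lay 113 bp from Hira, a histone chaperone gene, which was at 11.2, 5.83 and 3.92 FPKM, a change of -1.30 beside -1.38 for Mrpl40. Mrpl51 lay 614 bp from Ncapd2, a condensin subunit gene, which was at 28.3, 50.9 and 5.75 FPKM, a change of -2.12 beside 1.13. Mrpl47 lay 93 bp from Ndufb5, a subunit of the respiratory chain. Ndufb5 was at 173, 280.5 and 463 FPKM, a change of 1.42, and Mrpl47 was at 26.0, 34.0 and 19.7 FPKM, a change of -0.39 as deposited that changed sign with the scaling. Mrps12 lay 187 bp from Sars2, the mitochondrial seryl-tRNA synthetase, which was at 7.71, 7.58 and 2.78 FPKM. These pairs were chosen after their values were seen, and their changes had the same sign in some pairs and opposite signs in others.

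Promoters from RefSeq (GRCm38.p6), 250 bases before to 50 after the start, matched 67 of the 76 sense members. In 62 of these the deposited start lay within 100 bases of the RefSeq start. The core motifs of 3 factors known to act at housekeeping and mitochondrial genes were searched on both strands. GCATGCGC, the core of NRF1, was in 11.9% of member promoters, against 5.42% of those of genes of expressed mRNA loci and 2.71% of all 32851 promoters. CCGGAAG, the core of ETS factors such as GABPA, was in 35.8%, against 17.7% and 8.86%. AAGATGGCG, the core of YY1, was in 11.9%, against 3.06% and 1.40%. At least 1 of them was in 50.7% of member promoters, against 24.2% and 12.1%.

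No motif is a part of another, but the end of the ETS core can form the beginning of the YY1 core, and the NRF1 core overlaps its own reverse complement, so that a site can match on both strands. The median number of CpG in the window was 21 in members, 21 in genes of expressed mRNA loci and 7 in all promoters. Matches of the YY1 core had a median position of 22.5 bases after the start, those of the ETS core lay 19.5 bases before it and those of NRF1 46 bases before it. Of the 27 matched members higher in the adult than at E10.5 as deposited, 25.9% held the ETS core, and of the 40 lower ones 42.5%. These shares rest on 7 and 17 promoters and on a split that depends on the scaling.

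**Figure D4:**
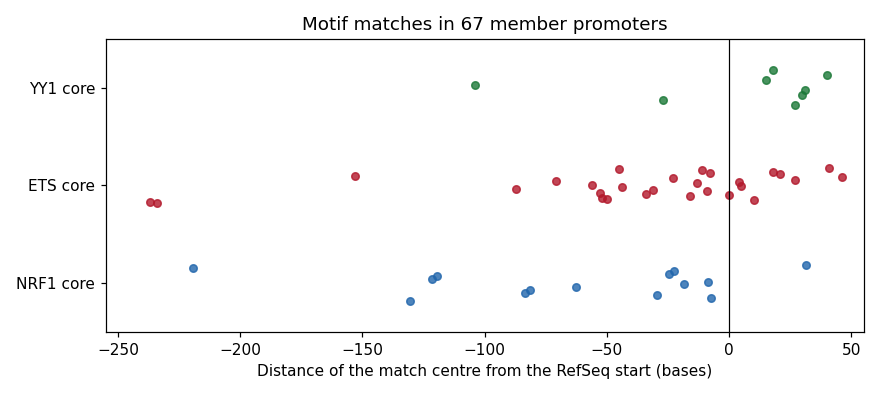
Position of motif matches in 67 member promoters, in bases from the RefSeq start (0, vertical line), from 250 before to 50 after it. Each point is the centre of 1 match, with small vertical shifts to separate points. NRF1 and ETS cores lie mostly before or at the start, and 6 of the 8 YY1 cores lie after it.

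The promoters of the genes with the largest changes are shown for comparison, for Mrpl42 (highest change from E10.5 to the adult), Mrps11 (lowest) and Mrps12 (highest from E10.5 to E13.5). Each runs from 250 bases before to 50 after the RefSeq start on the strand of the gene, and capitals mark a motif match. The windows are chr10:95501900-95502199 (minus strand), chr7:78782881-78783180 (plus strand) and chr7:28741772-28742071 (minus strand), in GRCm38.p6.
Mrpl42: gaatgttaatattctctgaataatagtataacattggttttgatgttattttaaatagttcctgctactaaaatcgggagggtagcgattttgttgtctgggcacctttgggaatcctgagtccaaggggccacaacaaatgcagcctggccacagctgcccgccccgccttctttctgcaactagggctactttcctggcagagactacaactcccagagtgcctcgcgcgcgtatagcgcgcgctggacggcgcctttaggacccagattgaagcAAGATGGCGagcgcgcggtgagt
Mrps11: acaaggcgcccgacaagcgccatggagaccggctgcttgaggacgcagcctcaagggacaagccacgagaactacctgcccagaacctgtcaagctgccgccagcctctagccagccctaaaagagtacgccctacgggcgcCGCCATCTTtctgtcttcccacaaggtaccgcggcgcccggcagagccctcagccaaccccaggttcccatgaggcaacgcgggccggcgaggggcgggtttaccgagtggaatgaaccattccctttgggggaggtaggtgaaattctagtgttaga
Mrps12: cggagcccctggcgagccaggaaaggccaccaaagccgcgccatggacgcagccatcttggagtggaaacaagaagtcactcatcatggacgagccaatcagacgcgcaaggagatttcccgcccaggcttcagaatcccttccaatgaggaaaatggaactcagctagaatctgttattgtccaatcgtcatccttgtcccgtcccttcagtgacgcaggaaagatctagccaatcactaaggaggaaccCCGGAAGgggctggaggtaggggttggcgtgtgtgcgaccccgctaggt

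Mrpl42 held the YY1 core centred 31 bases after the start. Mrps11 held it on the other strand, centred 104 bases before its start and so inside the neighboring Mrpl46. Mrps12 held the ETS core 4 bases after the start. A match is a description of the letters and not of a bound site.

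Other proteins of the mitoribosome carry symbols that the rule does not find. All 7 were expressed, with a median of 40.4, 54.0 and 45.3 FPKM, near that of the members. Dap3, the GTP-binding protein of the small subunit, was at 13.8, 15.4 and 14.9 FPKM. Ptcd3, a small subunit protein with repeats that bind RNA, was at 40.4, 54.0 and 62.2 FPKM. Ict1, a large subunit protein that can release stalled peptides, was at 54.4, 82.7 and 45.3 FPKM. Chchd1 was at 95.3, 107 and 64.3 FPKM, Aurkaip1 at 52.1, 72.0 and 60.1, Gadd45gip1 at 21.1, 41.0 and 21.3 and Mrp63 at 17.3, 27.6 and 13.3. None of the 7 differed by 1 or more between E10.5 and Adult, where 14.8% of expressed mRNA loci were higher and 27.3% lower.

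The genes that build and serve the mitoribosome were lower than its proteins in FPKM. Of assembly factors, 15 of 21 listed symbols had a locus, with a median of 8.68, 10.9 and 9.78 FPKM. From E10.5 to the adult 1 was higher by 1 or more (6.67%) and 0 lower, beside 14.8% and 27.3% of expressed mRNA loci. The highest change was that of Gtpbp10, a GTPase of large subunit assembly, at 3.40, 10.8 and 8.36 FPKM (1.09). The lowest was that of Dhx30, an RNA helicase, at 23.3, 27.2 and 11.4 FPKM (-0.97). The median change of the list was 0.06, which lay 0.46 above that of expressed mRNA loci.

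Translation factors, with 12 of 13 listed symbols measured, had a median of 15.6, 17.5 and 18.4 FPKM. Between E10.5 and Adult 1 gene was higher by 1 or more (8.33%) and 0 lower, beside 14.8% and 27.3% of expressed mRNA loci. The median change of the translation factors was 0.48, against -0.10 for the members. Relative to expressed mRNA loci it lay 0.88 to 0.92 higher over the 4 scalings, against 0.29 to 0.35 for the members. Taco1, an activator of cytochrome oxidase translation, was at 17.0, 16.6 and 35.6 FPKM (1.02), and Tsfm, an elongation factor, at 19.3, 26.1 and 12.4 FPKM (-0.60).

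The 17 mitochondrial aminoacyl-tRNA synthetases, which charge tRNAs, had a median of 8.48, 9.63 and 6.45 FPKM and a median change of -0.32, with 0 genes higher by 1 or more and 2 lower. Fars2 was at 18.05, 26.6 and 34.8 FPKM (0.91) and Sars2 had a change of -1.21. Of the genes of mitochondrial transcription and genome maintenance, 7 of 11 symbols were measured, with a median of 9.48, 10.2 and 8.85 FPKM. Tfb2m, a transcription factor of mitochondria, was at 9.48, 10.2 and 27.1 FPKM (1.42), and Polg2, a subunit of the mitochondrial DNA polymerase, at 7.48, 2.77 and 1.77 FPKM (-1.61). The 13 genes of the outer membrane, import and matrix had a median of 70.3, 138 and 66.5 FPKM and a median change of 0.12.

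The products of mitochondrial translation assemble with nuclear-encoded subunits of the respiratory chain and the ATP synthase, which were compared as a list of 78 genes. Their median was 156, 243 and 341 FPKM, and their median change between E10.5 and Adult was 1.06. In that comparison 41 of 78 were higher by 1 or more (52.6%) and 2 lower (2.56%), against 4 and 6 of the 78 members. Among expressed mRNA loci 14.8% were higher and 27.3% lower. The ratio of the list's median to that of the sense members, which scaling of a library cannot alter, was 4.53, 5.87 and 10.9. By summed FPKM it was 6.03, 6.67 and 14.0. The respiratory chain genes thus stood further above the members in the adult than in both embryonic libraries by either measure.

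Within this list the highest change was that of Cox8b, a cytochrome oxidase subunit of heart and muscle, at 84.1, 96.7 and 1883 FPKM (4.47). The lowest was that of Cox6a1, whose isoform Cox6a2 serves heart and muscle, at 363, 530 and 69.2 FPKM (-2.38). No member had a comparable change, as those of all 76 sense loci from E10.5 to the adult lay between -1.43 and 1.39.

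The genes of the cytosolic ribosome had lower values in the adult. Of 79 listed symbols 78 had a locus, with a median of 22.9, 43.5 and 13.3 FPKM and a median change of -1.30 between E10.5 and Adult. In that comparison 4 were higher by 1 or more (5.13%) and 42 lower (53.8%), beside 14.8% and 27.3% of expressed mRNA loci. The ratio of the list's median to that of the members was 0.662, 1.05 and 0.425, and by summed FPKM 4.06, 4.15 and 1.20. Both measures were lowest in the adult. Many of these genes share sequence with unspliced loci, as given above, so their own levels are uncertain. Without those genes the ratio of medians was 0.924, 1.19 and 0.565.

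**Figure D5:**
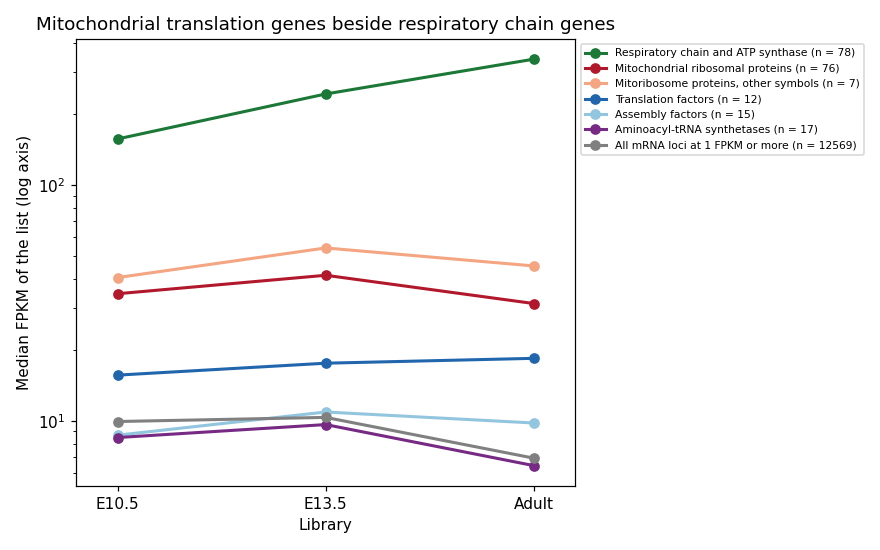
Median FPKM (log axis) of mitochondrial ribosomal proteins, of lists around mitochondrial translation, of respiratory chain genes and of expressed mRNA loci in the 3 libraries, 1 per stage. The respiratory chain line climbs from 156 to 341 FPKM, while the line of the mitochondrial ribosomal proteins stays between 31.4 and 41.3.

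Markers of several cell types were at different levels in the 3 libraries, and in bulk RNA fewer cells of a type and less RNA per cell cannot be told apart. All 9 cardiomyocyte markers were found, with a summed level of 12269, 20228.5 and 37082 FPKM. As deposited, 6 of the 9 were higher and 3 lower at E13.5 than at E10.5. In the adult 7 were higher and 2 lower than at E13.5, and all 9 were higher than at E10.5. Proliferation genes (10 of 10) summed to 538, 631 and 9.54 FPKM, and 8 erythroid loci (7 of 10 symbols) to 7169, 18098 and 207. From E10.5 to E13.5, 4 of these 8 were higher and 4 lower, with a median of 201, 283 and 2.37 FPKM. Endothelial genes (5 of 5) summed to 222, 149.98 and 226 FPKM, and macrophage genes (5 of 6 symbols) to 3.62, 19.95 and 82.0. Fibroblast genes (5 of 5) summed to 226, 442 and 499 FPKM with medians of 30.4, 75.9 and 33.1, and 4 of the 5 were lower in the adult than at E13.5 as deposited. No measured marker was listed at 0 in any library. Their part in the changes of the members was not tested. The mitochondrially encoded RNAs, on which the mitoribosome acts, lie in 1 locus that was at 1167 FPKM in the E10.5 library and listed at 0 in the others, so they could not be compared.

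The depth behind these values was estimated from the lowest steps of FPKM and is approximate. A locus of 1 kb at 1 FPKM rested on about 13.8, 26.7 and 13.8 fragments in the 3 libraries, and the median sense member on about 585, 1583 and 561. The counting error of a change on the log2 scale had a median over sense members of 0.07, 0.07 and 0.08 for the 3 pairs of stages (E10.5 to E13.5, E13.5 to Adult and E10.5 to Adult), and covers counting only, not the variation between animals. Of the 76 sense loci, 3, 2 and 3 rested on fewer than 100 fragments, among them Mrpl23 and Mrps36 in every library. The antisense loci are not in these counts.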

How the data were processed

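Total RNA of heart ventricle was sequenced at 3 stages with 1 library each. The authors deposited 1 table of FPKM values per merged locus and library, and an annotation of the merged transcripts. According to the submitters' processing notes, TopHat, Bowtie and Cufflinks were used on mm10 (the GRCm38 assembly). The study's methods name TopHat2, and assembly by Cufflinks both with a UCSC annotation and without one. Exact versions, other options and the treatment of multiply mapped fragments are not given in the sources used here. Of 332 introns of the members, 331 (99.7%) are in GENCODE M21 on GRCm38.

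Members were taken from the annotation by gene symbol, and the members and gene lists were chosen with earlier results of these data known. Some lists hold an older and a newer symbol of the same gene. A listed symbol without a locus is therefore not always an unmeasured gene. An mRNA locus has a transcript matched to a RefSeq mRNA (20117 loci), and was called expressed if it reached 1 FPKM in any library. Changes are differences of log2(FPKM + 1), a scale that understates the change of low genes, counted at 1 or more. Genes were named by rule: among single-gene sense loci above 0 in all libraries, the 8 highest and 8 lowest changes from E10.5 to the adult, the 5 highest and 5 lowest from E10.5 to E13.5, and the 5 highest and 5 lowest means, then the Mrps18 family, Mrps36, joined, antisense or near-0 loci, all 7 mitoribosome proteins with other symbols, and the extremes of the other lists. Head-to-head partners were chosen after their values were seen. Shared sequence was searched as 31-base words between matched mRNAs and 25942 unspliced loci with no match to the reference. The change calculation was tested on simulated data. The tools were Python 3.11.15, pandas 2.3.3, numpy 2.4.6, scipy 1.17.1, biopython 1.88, pysam 0.24.0 and matplotlib 3.10.9.

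Alternatives changed the scaling of the libraries, the pseudocount, the threshold, the filter on low values and the set of members.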

Additional observations from a re-analysis of the deposited data

How the results depend on the processing

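Of 138 recalculated values, 100 stayed within the limits set, 34 moved further and 4 changed sign. The limit was 1.5 times for counts and ratios. For medians it was an interval around the main median, taken from the ordered changes of the members, which are not replicates. No paired analysis was possible because there is 1 library per stage. The alternatives on shared sequence were chosen after seeing the data and left each value within these limits. The members' median change from E10.5 to E13.5 was 0.30 with median-of-ratios scaling, 0.15 with an equal sum of mRNA loci without globin and 0.0615 with an equal sum of all loci. From E13.5 to Adult it was 0.0141, -0.22 and 0.29, and from E10.5 to Adult 0.29 with median-of-ratios scaling and 0.31 with an equal sum of all loci. All 4 changes of sign were found with other scalings of the libraries, in the 2 comparisons with the adult. Relative to expressed mRNA loci, the members' median from E13.5 to Adult stayed between -0.04 and 0.06. From E10.5 to Adult it stayed 0.29 to 0.35 above that of expressed mRNA loci.

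The counts past the threshold moved as follows. From E10.5 to E13.5, 0 members were higher under each other scaling, with a pseudocount of 5 or with a threshold of 2, and 34 with a threshold of 0.5. Lower was 1 without globin, with a pseudocount of 0.1 or with a threshold of 0.5. In each case it was the low, unspliced locus antisense to Mrpl55, not a sense member. Beside these counts, 4.18% of expressed mRNA loci were higher and 6.29% lower with median-of-ratios scaling. The shares were 3.36% and 8.64% without globin, and 2.58% and 10.26% with an equal sum of all loci. From E13.5 to Adult, 2 members were higher with median-of-ratios scaling, 7 with an equal sum of all loci and 1 with a threshold of 0.5. Lower were 2 with median-of-ratios scaling, 7 without globin, 0 with an equal sum of all loci, 7 with a pseudocount of 5, 0 with a threshold of 2 and 43 with a threshold of 0.5. Of expressed mRNA loci, 20.83% were higher and 18.94% lower with median-of-ratios scaling. It was 17.17% and 23.60% without globin, and 25.97% and 14.50% with an equal sum of all loci. From E10.5 to Adult, 0 members were higher with a threshold of 2 and 9 with 0.5. Lower were 1 with median-of-ratios scaling, 1 with an equal sum of all loci, 2 with a pseudocount of 5, 0 with a threshold of 2 and 19 with 0.5. Here 18.39% of expressed mRNA loci were lower with median-of-ratios scaling and 18.24% with an equal sum of all loci. Shares of expressed mRNA loci are not given for the other pseudocounts and thresholds. The ratio of cytosolic to mitochondrial ribosomal proteins was 4.06, 4.15 and 1.20 by sums in place of medians. That of small to large subunit genes was 0.813 at E10.5 and 0.760 at E13.5 by medians in place of sums. The sums run over 26 and 49 genes, so gene number enters this move. The ratio of means was 0.714 at E10.5 and 0.728 at E13.5.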
